A study of Mus musculus with 6 samples.

Results

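Dact1 and 9 other genes of the Wnt pathway were followed in HL-1, a single immortalised line of mouse atrial muscle cells that still expresses many cardiac genes. The members were Dact1 and Dact3, the Dishevelled genes Dvl1, Dvl2 and Dvl3, Axin1 and Axin2, Ctnnb1, the co-receptor gene Lrp6 and the transcription factor gene Tcf7l2. They were chosen from the comparison of BRL with vehicle, in which Dact1 stood out, by gene symbol, and all 10 of 10 were found among the 32739 genes in the files. Both groups were kept in hypoxia for 6 h and then reoxygenated for 1 h, which mimics ischaemia and reperfusion in culture. The vehicle group had 3 libraries, and the BRL group had 3 libraries from cells given 5 µM BRL37344, an agonist of the β3-adrenergic receptor. The sources used here do not say when the agonist was added, nor whether the replicates were separate cultures, so p-values measure only the spread between these libraries, which may be technical.

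In canonical Wnt signalling, a Wnt ligand binds a Frizzled receptor and the co-receptor LRP5 or LRP6, Dishevelled is recruited to the membrane, and the Axin, APC and GSK3 complex that marks β-catenin for destruction is held back. β-catenin then enters the nucleus and joins TCF/LEF factors at target genes, of which Axin2 is a widely used readout and also a feedback inhibitor. DACT proteins (Dapper or Frodo) bind Dishevelled and modulate both the β-catenin branch and the planar polarity branch. In heart, Wnt signals act in development and are re-engaged after injury.

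Total expected counts ran from 4440168 to 5060049 in vehicle and from 6812810 to 8332472 in BRL, so depth did not overlap between the groups. BRL replicate 1 stood apart. Mitochondrially encoded genes took 5.03% of its counts, against 16.5% to 21.9% in the other 5 libraries, and results are given with and without it where it moves them. All 6 cardiomyocyte markers were detected in both groups. They summed to 6565 to 7320 CPM (counts scaled to library size, with TMM factors) in vehicle and 3577 to 4960 CPM in BRL, lowest in BRL replicate 1. Of 7 fibroblast markers 4 had at most 3 counts in any library, as did 3 of 6 endothelial and 5 of 6 leukocyte markers. Dcn, Lum, Emcn, Ptprc, Csf1r, Lyz2 and Adgre1 were at 0 throughout. The fibroblast, endothelial and leukocyte lists, each summed by itself, did not exceed 6.32 CPM in any library. The 6 smooth muscle markers summed to 3065 to 3462 CPM in vehicle and to 1271 to 2648 CPM in BRL, with the lowest value in BRL replicate 1. In such bulk libraries, fewer cells of a type and less RNA per cell cannot be told apart.

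The sequences before the start sites of the DACT genes are shown because Dact1 was higher in BRL and its paralog Dact3 was not. RefSeq entries (GRCm38.p6) were matched by symbol for 8 of the 10 members, with 10 start sites. The 250 bases before the start of Dact1 (chr12:71309634-71309883, plus strand) were 80.4% G or C, and those of Dact3 (chr7:16875067-16875316, plus strand) 60.4%. Capitals mark TGACG or its reverse complement CGTCA, the core of the cyclic AMP response element (CRE).
Dact1: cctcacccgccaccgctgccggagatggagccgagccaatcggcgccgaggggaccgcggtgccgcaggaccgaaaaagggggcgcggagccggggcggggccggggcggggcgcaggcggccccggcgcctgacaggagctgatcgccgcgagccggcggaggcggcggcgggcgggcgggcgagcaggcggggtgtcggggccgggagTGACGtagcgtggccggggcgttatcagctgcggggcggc
Dact3: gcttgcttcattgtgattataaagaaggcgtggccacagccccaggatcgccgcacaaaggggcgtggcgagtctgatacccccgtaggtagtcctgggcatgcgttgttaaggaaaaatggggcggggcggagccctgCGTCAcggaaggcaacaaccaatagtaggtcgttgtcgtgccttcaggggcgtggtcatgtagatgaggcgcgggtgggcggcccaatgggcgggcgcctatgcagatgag

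Each of these windows held 1 such core, beginning 40 bases before the start in Dact1 and 111 bases before it in Dact3. Over all 32851 RefSeq starts, 17.8% of windows of this length held TGACG on either strand, and 4 of the 10 member starts did, the other two being starts of Ctnnb1 and Tcf7l2. The complete element TGACGTCA, which contains the core on both strands, was in 1.55% of all windows and in 0 member windows. The TCF/LEF letters CTTTGAA and CTTTGAT, searched on both strands, were in 4.46% and 3.21% of all windows and in 0 member windows.

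Dact1 (ENSMUSG00000044548) was higher in every BRL library, and it was the only member with a change of this size. It measured 11.7, 13.8 and 12.6 CPM in vehicle replicates 1, 2 and 3 and 59.96, 66.3 and 55.1 CPM in BRL replicates 1, 2 and 3. The groups lay far apart and each was tight, with a coefficient of variation of 8.65% in vehicle and 9.29% in BRL. The means were 12.7 ± 1.10 and 60.5 ± 5.62 CPM (SD, n = 3 in each group), a fold of 4.75 or 2.25 ± 0.13 on the log2 scale (SE, edgeR fit). Without BRL replicate 1 the log2 fold change was 2.26. Because this contrast chose Dact1, these values are a description and are not tested.

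The Dact1 counts were whole numbers in all 6 libraries (52, 66 and 62 in vehicle and 453, 471 and 451 in BRL), with no sign of reads split between loci. In GENCODE M21 its exons overlap by up to 1313 bases those of 4930474H06Rik on the opposite strand, a gene with 0 counts in every library. The sources used here state no strand setting. The fractional counts of Dvl2 and of Acadvl, which overlaps it on the opposite strand, complete each other to whole counts. In vehicle replicate 1 they were 237.65 and 347.35. Reads over that overlap were thus shared between strands. The 0 counts of 4930474H06Rik therefore do not show that reads from its strand are absent from Dact1. Opposite-strand exons also overlap those of Axin2 (Gm11670, up to 105 bases, 0 counts in every library), Ctnnb1 (Ulk4, up to 475 bases, 21 to 57 counts per library) and Dvl1 (Tas1r3, up to 36 bases, 1 to 14 counts). The microRNA genes Mir7090 and Mir324 overlap Ctnnb1 and Dvl2. In the authors' deposited log2 table, the mean of Dact1 was 2.23 higher in BRL, and for the 10 members the differences in that table were at most 0.0331 from the edgeR log2 fold changes.

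**Figure D1:**
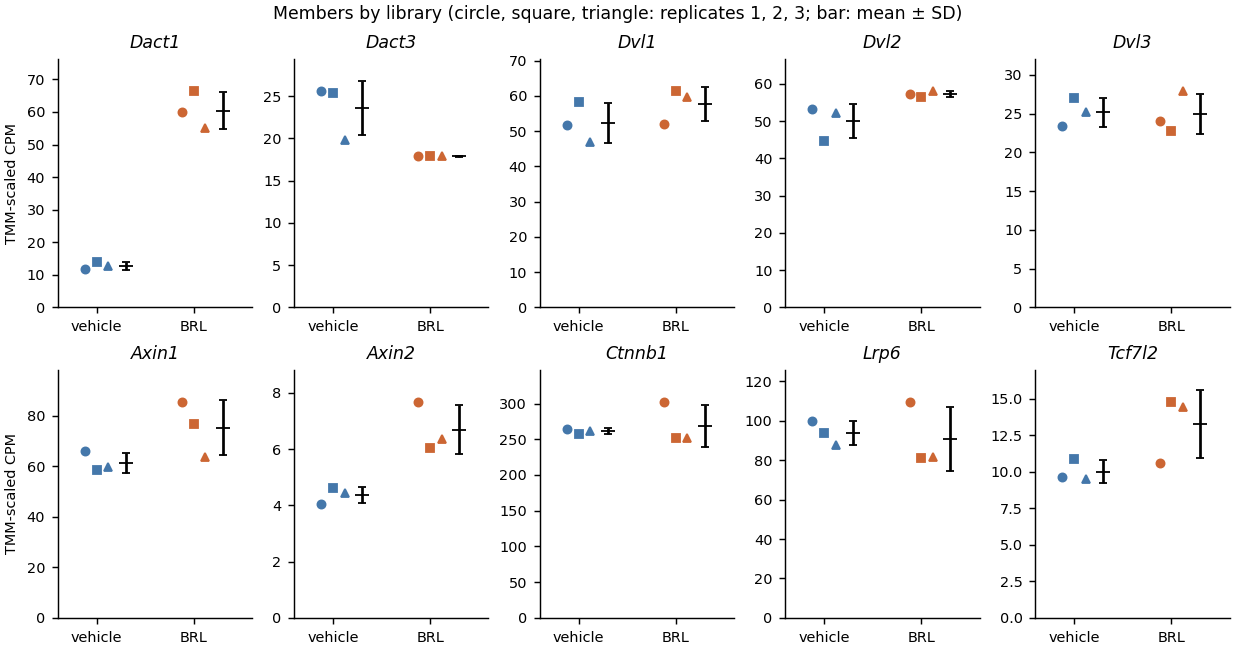
TMM-scaled CPM of each member (vertical axes, starting at 0) in 3 vehicle (blue) and 3 BRL (orange) libraries, with replicates 1, 2 and 3 as circle, square and triangle and the bar as mean ± SD. Dact1 sits at 11.7 to 13.8 CPM in vehicle and 55.1 to 66.3 CPM in BRL, while the groups of Dvl1, Dvl3, Axin1, Ctnnb1, Lrp6 and Tcf7l2 overlap.

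Dact3 (ENSMUSG00000078794), the other DACT gene detected, did not follow Dact1. It measured 25.6, 25.4 and 19.9 CPM in vehicle and 17.9, 17.9 and 17.96 CPM in BRL, a log2 fold change of −0.40 ± 0.14. In CPM every BRL library was below every vehicle library, by a narrow margin for vehicle replicate 3. Dact2, the remaining family member, had 0 counts in all 6 libraries, which at 3 counts per library allows up to 0.360 to 0.676 CPM. The DACT genes therefore changed order: scaled by length as TPM, a share of all transcripts in the library, the ratio of Dact1 to Dact3 was 0.35, 0.44 and 0.49 in vehicle and 2.68, 2.93 and 2.42 in BRL. This ratio is taken within each library and does not depend on library scaling. The TPM of Dact3 itself overlapped between the groups, at 10.7 to 14.6 in vehicle and 8.83 to 12.9 in BRL.

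The Dishevelled genes encode the cytoplasmic hubs that DACT proteins bind, and their levels stayed close together. Dvl1 (ENSMUSG00000029071) ranged from 46.8 to 58.3 CPM in vehicle and from 52.1 to 61.2 CPM in BRL, with a log2 fold change of 0.14 ± 0.12. Dvl3 (ENSMUSG00000003233) ranged from 23.3 to 27.1 CPM and from 22.8 to 27.8 CPM, with −0.01 ± 0.13. For both genes the ranges overlapped. Dvl2 (ENSMUSG00000020888) was 44.8 to 53.3 CPM in vehicle and 56.6 to 57.97 CPM in BRL, without overlap, with 0.19 ± 0.10. Counts of Dvl2 and Dvl3 were not whole, a sign of reads split between loci, and exons of Dvl2 overlap those of Acadvl on the opposite strand by up to 377 bases, a gene with 347 to 684 counts per library. By length-scaled level, Dvl1 made up 38.1% ± 2.58 of the Dvl transcripts in vehicle and 37.98% ± 2.52 in BRL, Dvl2 40.8% ± 2.93 and 41.9% ± 1.82, and Dvl3 21.1% ± 1.24 and 20.1% ± 1.44 (SD, n = 3). The ranges of each share overlapped between the groups. Summed over the 3 genes, the level was 124 to 130 CPM in vehicle and 134 to 145 CPM in BRL. Per length the sums overlapped, at 72.9 to 75.8 TPM in vehicle and 68.99 to 96.0 TPM in BRL.

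Axin1 and Axin2 encode scaffolds of the β-catenin destruction complex. Axin1 (ENSMUSG00000024182), present in most cells, measured 65.9, 58.7 and 59.6 CPM in vehicle and 85.5, 76.7 and 63.8 CPM in BRL, with a log2 fold change of 0.29 ± 0.13. BRL replicate 3 fell within the vehicle range. Axin2 (ENSMUSG00000000142), itself induced by β-catenin in many tissues, was the scarcest member, with 18, 22 and 22 counts in vehicle and 58, 43 and 52 in BRL. These correspond to 4.04, 4.62 and 4.46 CPM and to 7.68, 6.05 and 6.35 CPM. In CPM every BRL library was therefore above every vehicle library, and the log2 fold change was 0.61 ± 0.23. In TPM the groups overlapped, with 2.53, 3.81 and 2.88 in vehicle and 7.69, 3.04 and 3.83 in BRL. Without BRL replicate 1, the library with the highest Axin1 and Axin2, the log2 fold changes were 0.20 for Axin1 and 0.51 for Axin2.

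Ctnnb1 (ENSMUSG00000006932), which encodes β-catenin, was the most abundant member and had nearly the same level in both groups. It measured 265.0, 257.8 and 261.7 CPM in vehicle and 302.03, 252.3 and 251.8 CPM in BRL, with a log2 fold change of 0.04 ± 0.10. BRL replicate 1 was above the vehicle range and the other two BRL libraries were just below it. Lrp6 (ENSMUSG00000030201), the Wnt co-receptor, had the same arrangement, with 99.8, 93.6 and 87.6 CPM in vehicle and 109.5, 81.2 and 81.5 CPM in BRL. Its log2 fold change was −0.05 ± 0.14 and, without BRL replicate 1, −0.20. β-catenin is controlled mainly through the stability of its protein, which RNA counts do not measure.

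Tcf7l2 (ENSMUSG00000024985), the DNA-binding partner of β-catenin, varied between BRL libraries in the other direction. It measured 9.64, 10.9 and 9.53 CPM in vehicle and 10.6, 14.8 and 14.4 CPM in BRL, so BRL replicate 1 lay within the vehicle range and replicates 2 and 3 above it. The log2 fold change was 0.40 ± 0.19, and without BRL replicate 1 it was 0.55.

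Counted over the fit of all genes, 1 of the 10 members, Dact1, passed edgeR's adjusted p of 0.05, where 2.81% of 12047 tested genes did. In CPM, 3 members (Dact1, Dvl2 and Axin2) were above in every BRL library and 1 (Dact3) was below in each, against 16.0% and 15.5% of all tested genes. The median log2 fold change was 0.17 over the members and 0.01 over all tested genes. All 10 members passed the filter on low counts, and since this contrast chose them, nothing is read from these counts. With BRL replicate 1 left out, 2 members, Dact1 and Tcf7l2, passed as higher, where 10.3% of all genes did.

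Levels can be compared between genes only per length. In vehicle, Ctnnb1 led with 116.95 ± 5.93 TPM, followed by Axin1 (34.99 ± 6.83), Dvl2 (30.2 ± 2.30) and Dvl1 (28.2 ± 2.18), whose ranges overlapped. A lower tier held Lrp6 (16.3 ± 1.89), Dvl3 (15.6 ± 0.621) and Dact3 (12.97 ± 2.00 TPM). Of these, Lrp6 overlapped Dvl3 and Dact3, while Dvl3 stayed above Dact3. Dact1 (5.44 ± 0.440) and Tcf7l2 (4.82 ± 0.556 TPM) overlapped, and Axin2 was lowest at 3.07 ± 0.659 TPM. In BRL, Dact1 measured 27.7 ± 6.03 TPM and moved from position 8 to position 5 by mean level, next to Dvl1 (30.6 ± 3.19 TPM), with which its range overlapped. BRL replicate 1 had the highest TPM of the BRL libraries for 10 of 10 members and the highest CPM for 4. TPM is a share of all transcripts, and the low share of mitochondrial transcripts in that library stands beside this; its part was not tested.

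**Figure D2:**
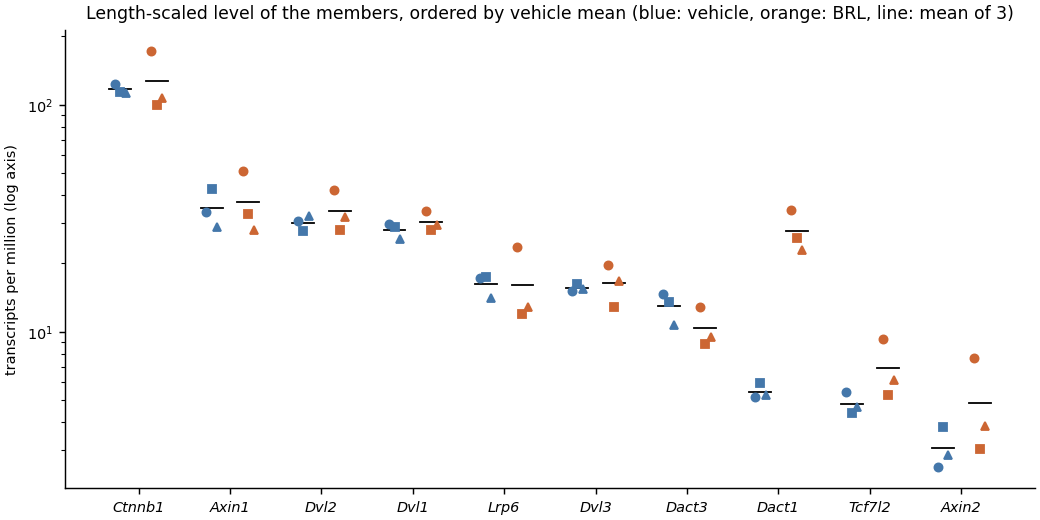
TPM of the members on a log axis, ordered by vehicle mean, for 3 vehicle (blue) and 3 BRL (orange) libraries, with black lines as means and symbols as replicates 1 (circle), 2 (square) and 3 (triangle). Dact1 goes from 5.44 TPM in vehicle to 27.7 TPM in BRL, and the orange circle, BRL replicate 1, is the highest BRL value for every member.

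Count and TPM together give the mean length of the transcripts to which RSEM, the authors' quantification program, assigned the reads, a readout of isoform mix that is separate from the level. For Dact1 this length was 3544 to 3691 bases in vehicle and 3572 to 3616 bases in BRL, so the rise came with no shift in length beyond the vehicle range. Dact3, Dvl3 and Ctnnb1 were as steady, at 2846 to 2849, 2498 to 2528 and 3444 to 3593 bases over all 6 libraries. Other members varied more. Dvl1 was 2813 and 2798 bases in vehicle replicates 1 and 3 and 3024 to 3135 bases in the other 4 libraries, and Dvl2 was 2461 and 2494 bases in vehicle replicates 2 and 3 and 2721 to 2822 bases in the others. Vehicle and BRL overlapped in both. Axin1 was 2108 bases in vehicle replicate 2 and 3168 to 3424 bases in the other 5 libraries, and Lrp6 was 8134 bases in that same library against 9396 to 9543 bases elsewhere. Axin2 and Tcf7l2, with fewest reads, ranged from 1845 to 2802 and from 2349 to 3935 bases, with the groups overlapping. Isoform assignment at these depths is uncertain, and the TPM of Axin1 in vehicle replicate 2, 42.4 against 33.6 and 28.9 in replicates 1 and 3, rests on it.

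**Figure D3:**
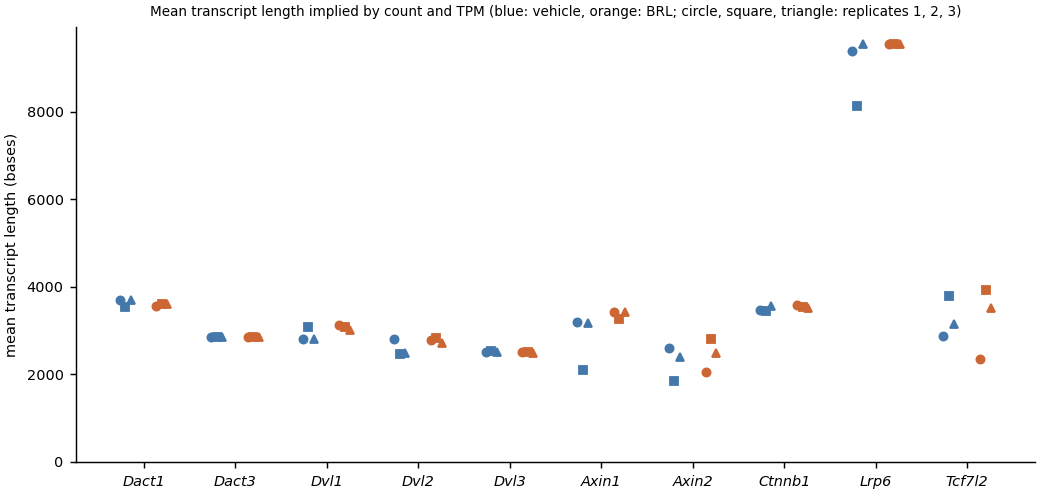
Mean transcript length in bases implied by count and TPM for each member, in 3 vehicle (blue) and 3 BRL (orange) libraries, with circle, square and triangle for replicates 1, 2 and 3. Dact1 stays between 3544 and 3691 bases in all libraries, while Axin1 and Lrp6 are shorter in vehicle replicate 2, at 2108 and 8134 bases.

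By the rule of highest Pearson correlation of log2 CPM with Dact1 over the 6 libraries, the closest of 11671 tested genes with a symbol were Slc25a39 (r = 0.9989), Ranbp1 (0.9974), Gm6055, Rpl36al, Gm20721 and Igf1 (0.9934). All 6 share the step between the groups, and 225 genes had r of at least 0.95. Igf1, the gene of insulin-like growth factor, had the closest fold among those with reads in both groups, with 33.2, 32.5 and 36.5 CPM in vehicle and 96.6, 95.9 and 91.9 CPM in BRL. Slc25a39, a mitochondrial carrier, rose less, from 118 ± 1.12 to 155 ± 3.13 CPM, and Ranbp1, a partner of the nuclear transport GTPase Ran, went from 107 ± 2.15 to 133 ± 0.459 CPM. Gm6055 and Gm20721 had 0 counts in vehicle and counts that were not whole in BRL, so they are uncertain. For Rpl36al only the count of BRL replicate 1 (755.25) was not whole. No p is attached, as the points share the group step.

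The rest of the pathway was described with 7 lists of 131 genes. Of these, 77 passed the filter on low counts, and 24 of the other 54 had 0 counts in all libraries. With p-values of the edgeR quasi-likelihood test adjusted over all 12047 genes (Benjamini-Hochberg), 1 of the 77 rose (Ror1) and 4 fell (Dixdc1, Daam1, Amer1 and Lbh). That is 6.49%, beside 2.81% of all tested genes (1.01% higher and 1.79% lower). Every BRL library was above every vehicle library for 17 genes (22.1%, against 16.0% of all) and below for 14 (18.2%, against 15.5%), and the median log2 fold change was 0.01, as over all genes. With upper-quartile scaling 2 genes passed as higher and 2 as lower, beside 134 and 198 of all 12047 genes. With DESeq2 3 and 5 passed, beside 246 and 355 of all 12047. For limma-voom, the counts over all 12047 genes were 95 higher and 184 lower. The DESeq2 and limma-voom counts given by list below stand beside these. The marker sums of cardiomyocytes (1 of 6 markers called lower) and of smooth muscle (0 of 5 tested called) were both lower in BRL without overlap. Without BRL replicate 1, 3 cardiomyocyte and 3 smooth muscle markers were called lower, where 10.9% of all genes were. The marker sums stand beside the falls of the list genes, and their part was not tested.

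Few Wnt ligands were detected. Of 19 Wnt ligands only Wnt7b and Wnt9a passed the filter, and 12 of the 17 ligands below it had at most 3 counts in any library. Wnt9a, at 5.04 ± 1.25 CPM in vehicle, was at 6.03 ± 1.41 CPM in BRL. Wls, the carrier that escorts Wnt proteins to the surface, was well detected at 122 ± 8.04 and 93.6 ± 13.1 CPM (log2 fold change −0.38 ± 0.12, edgeR adjusted p = 0.128). Porcn, which attaches the lipid that Wnt proteins need, had −0.61 ± 0.43 (adjusted p = 0.438) at 2.51 ± 0.86 CPM in vehicle. Of the 4 genes of this list tested, edgeR called 0, with 1 at an unadjusted p under 0.05, as 22.4% of all tested genes were, and DESeq2 and limma-voom called 0. With BRL replicate 1 left out, Wls passed as lower (−0.27, adjusted p = 0.0259), as 10.9% of all genes did.

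Among receptors, Ror1, a receptor tyrosine kinase for Wnt5a in the branch that does not use β-catenin, rose. It measured 4.48, 4.62 and 5.88 CPM in vehicle and 14.2, 10.8 and 10.1 CPM in BRL, with no overlap (log2 fold change 1.22 ± 0.22, edgeR adjusted p = 0.0309). Wnt5a itself had 0 counts in every library. Fzd6, a Frizzled receptor, had the highest mean TPM of the list over the 6 libraries. In vehicle alone Fzd7 was level with it, at 34.9 ± 3.18 against 34.8 ± 2.93 TPM. Fzd6 was higher in each BRL library and missed the threshold (0.67 ± 0.15, edgeR adjusted p = 0.0514). It measured 95.97, 86.6 and 93.04 CPM in vehicle and 178, 122 and 137 CPM in BRL. The 13 tested receptor genes other than Ror1 and Fzd6 did not pass. DESeq2 called 2 of the 15 as higher and 0 as lower, and limma-voom 1 and 0. In the fit without BRL replicate 1, where 21.2% of all genes passed, 3 of 14 rose (Fzd6, Ror1 and Lrp5) and Fzd4 fell.

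Among the secreted antagonists and agonists, Dkk3, a Dickkopf family member and the most abundant tested gene of the 7 lists per length, measured 494, 502 and 576 CPM in vehicle and 422, 388 and 485 CPM in BRL (log2 fold change −0.28 ± 0.12, adjusted p = 0.214). Wif1, which binds Wnt ligands outside the cell, measured 137, 127 and 148 CPM in vehicle and 55.9, 89.4 and 107 CPM in BRL, with no overlap and the lowest value in BRL replicate 1 (−0.71 ± 0.21, edgeR adjusted p = 0.102). Igfbp4, an IGF-binding protein that also binds Frizzled and LRP6, had 0.29 ± 0.10 (adjusted p = 0.151). Of 6 tested genes edgeR called 0, with 3 at an unadjusted p under 0.05 (22.4% of all tested genes were), limma-voom called 0, and DESeq2 called 1 as lower. When BRL replicate 1 was left out, Wif1 passed as lower (−0.48, adjusted p = 0.00253) and Igfbp4 as higher (0.31, adjusted p = 0.0266). In that fit 21.2% of all genes passed. Dkk1, Dkk2, Dkk4, Sfrp2 and Sfrp4 had 0 counts throughout.

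Both planar polarity and Dishevelled partner genes that passed the threshold fell. Dixdc1, which carries a DIX domain like Dishevelled and Axin, measured 54.04, 65.7 and 60.0 CPM in vehicle and 37.7, 31.5 and 41.4 CPM in BRL (log2 fold change −0.70 ± 0.13, edgeR adjusted p = 0.0345). Daam1, a formin that links Dishevelled to actin, measured 139, 141 and 154 CPM in vehicle and 91.2, 101.5 and 106.5 CPM in BRL (−0.54 ± 0.10, adjusted p = 0.0337). Neither gene's groups overlapped, and without BRL replicate 1 their log2 fold changes were −0.70 and −0.47. Csnk1d, a casein kinase that phosphorylates Dishevelled and the most abundant gene of this list per length, had 0.43 ± 0.11 (adjusted p = 0.0836), and its counts were not whole. The other 13 of 16 did not pass. DESeq2 called 1 as higher and 2 as lower, and limma-voom 0 and 2. Leaving out BRL replicate 1, where 21.2% of all genes passed, Celsr3 and Daam2 also fell and Csnk1d rose.

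In the destruction complex, Amer1, which recruits APC and Axin to the membrane, fell. It measured 66.6, 84.5 and 84.1 CPM in vehicle and 35.3, 42.5 and 54.3 CPM in BRL (log2 fold change −0.83 ± 0.17, edgeR adjusted p = 0.0435). Only its count in BRL replicate 3 (444.4) was not whole. Csnk1a1, the priming kinase of β-catenin and the most abundant gene of the list per length, was 382 ± 9.40 CPM in vehicle and 369 ± 29.9 CPM in BRL (−0.05 ± 0.10, adjusted p = 0.807). Gsk3a, a kinase of the complex, had 0.31 ± 0.12 (adjusted p = 0.170), with counts that were not whole. Apc, the scaffold that binds β-catenin, depended on BRL replicate 1. It measured 157, 154 and 152 CPM in vehicle and 153, 99.95 and 109 CPM in BRL (−0.35 ± 0.16, adjusted p = 0.223), and without that library it passed (−0.55, adjusted p = 0.000169). In that fit, where 21.2% of all genes passed, Amer1 and Tnks also passed as lower and Apc2 as higher. With all 6 libraries, 12 genes of this list were tested and edgeR called 1, Amer1. DESeq2 and limma-voom each called 0 as higher and 1 as lower.

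Of 15 tested nuclear partners of β-catenin, edgeR called 0, with 2 at an unadjusted p under 0.05 (22.4% of all tested genes were), and DESeq2 and limma-voom called 0. Tle4, a Groucho co-repressor, had the smallest p, with 17.9, 18.04 and 20.3 CPM in vehicle and 28.3, 26.04 and 24.3 CPM in BRL (log2 fold change 0.48 ± 0.12, adjusted p = 0.0774). Tcf7l1, a TCF that mostly represses, had 0.44 ± 0.16 (adjusted p = 0.161), and Tle5, a short Groucho relative and the most abundant per length, had 0.20 ± 0.11 (adjusted p = 0.313). Without BRL replicate 1, 4 of 15 rose (Tcf7l1, Bcl9l, Tle4 and Tle5), where 10.3% of all genes did. Lef1 had at most 2 counts in any library, so among TCF/LEF genes only Tcf7, Tcf7l1 and Tcf7l2 were measured.

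Genes reported as β-catenin/TCF targets did not move together. Of 26 listed, 12 were tested, and Sp5, Lgr5 and Dkk1 were among those with 0 counts in all libraries. Lbh, a transcriptional cofactor gene, fell from 82.96, 87.1 and 100.1 CPM in vehicle to 39.7, 55.6 and 60.6 CPM in BRL (log2 fold change −0.79 ± 0.16, edgeR adjusted p = 0.0436). Msx1, a homeobox gene, had 0.79 ± 0.25 (adjusted p = 0.118) at 4.27 ± 1.08 and 7.41 ± 0.59 CPM. Myc, the most abundant of the list per length, measured 82.5, 64.4 and 65.3 CPM in vehicle and 58.4, 122.9 and 96.04 CPM in BRL (0.39 ± 0.24, adjusted p = 0.388). Its lowest value was in BRL replicate 1, without which it passed as higher (0.63, adjusted p = 0.00249), as did Msx1 (0.81, adjusted p = 0.0403). In that fit 10.3% of all genes passed as higher. With all 6 libraries, DESeq2 and limma-voom each called 0 of the 12 as higher and 1 as lower. The median over the 12 was −0.25 with all 6 libraries and −0.03 without BRL replicate 1. Over all tested genes these medians were 0.005 and 0.003.

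**Figure D4:**
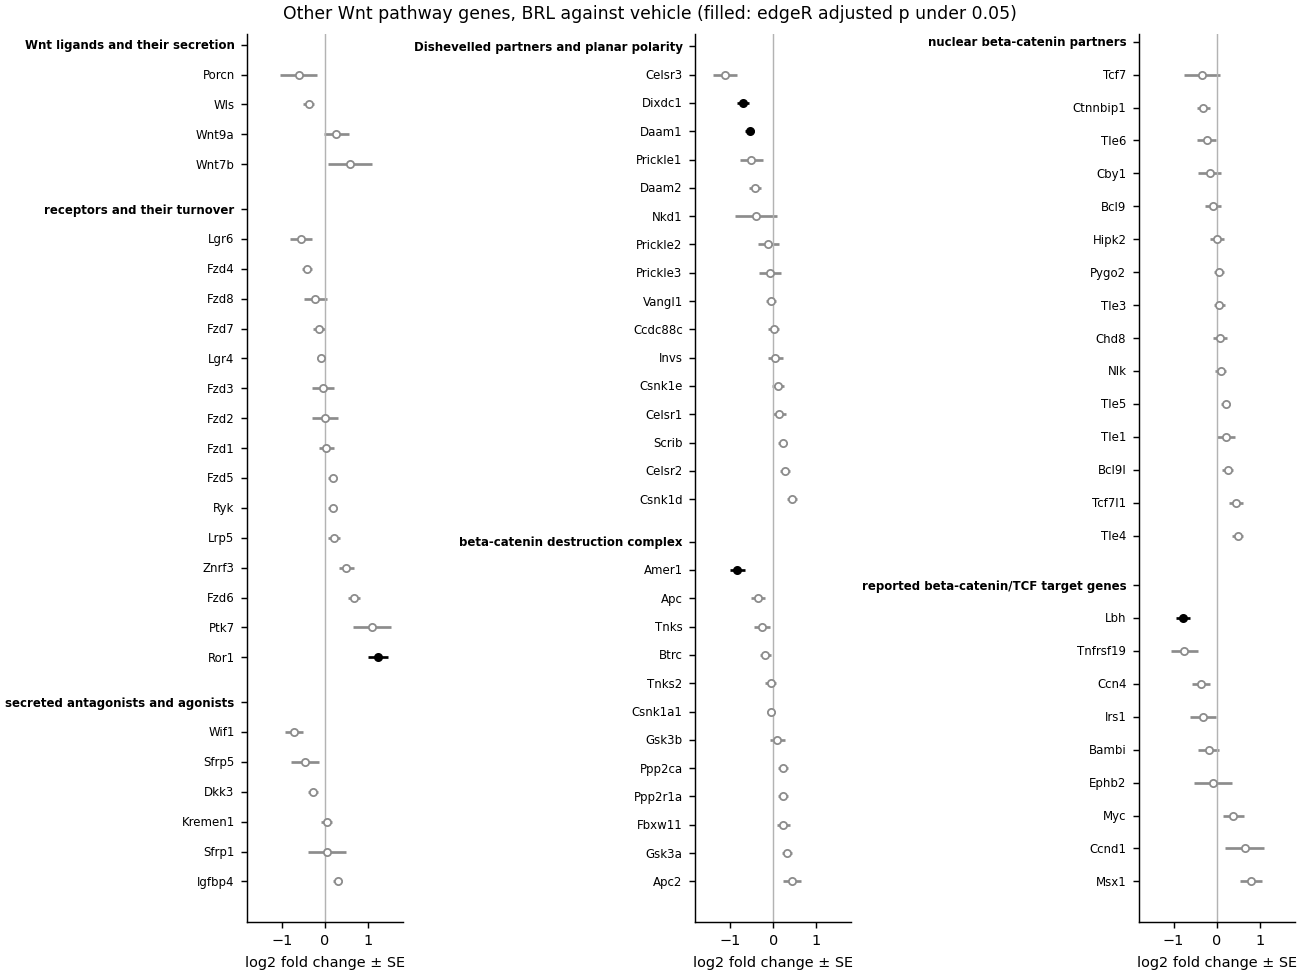
Log2 fold change of BRL over vehicle ± SE (horizontal axis) for the 77 tested genes of the 7 Wnt lists, grouped by role, with filled points for edgeR adjusted p under 0.05. Ror1 at 1.22 is the filled point to the right, and Dixdc1, Daam1, Amer1 and Lbh are filled points between −0.83 and −0.54.

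The calls among these genes were near the threshold and depended on single libraries, as did the number of calls over all genes. None of Ror1, Dixdc1, Daam1, Amer1 and Lbh passed in any fit that left out a vehicle library or BRL replicate 2. Without BRL replicate 3 Amer1 passed alone of the 5. Over all genes, 56 of 12368, 48 of 12351 and 32 of 12341 passed without vehicle replicates 1, 2 and 3. Without BRL replicates 2 and 3 these were 127 of 12058 and 148 of 12053, against 338 of 12047 with all 6 libraries. The adjusted p of the 5 genes over 13 alternatives, DESeq2 and limma-voom among them, ranged from 0.000559 to 0.231, while their directions were the same in each. Without BRL replicate 1, 12 of 75 list genes rose and 11 fell, 30.7% beside 21.2% of all genes.

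**Figure D5:**
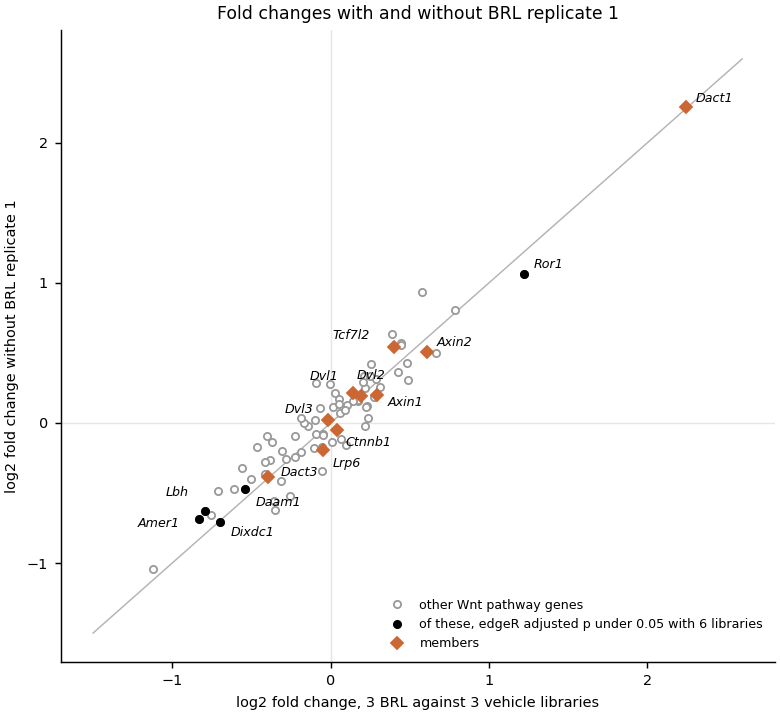
Log2 fold change with all 6 libraries (horizontal axis) against that without BRL replicate 1 (vertical axis) for the members (orange) and the other tested Wnt genes (grey; black where edgeR adjusted p was under 0.05), with the line of equality. Dact1 lies at 2.25 and 2.26, far from the other members, which lie between −0.40 and 0.61 on the horizontal axis.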

How the data were processed

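RNA-seq libraries (Illumina TruSeq, total RNA) (6) of HL-1 cells were used, grouped by sample title. The authors deposited RSEM expected counts per gene and an RSEM fraction of transcripts (summing to 1), rescaled here to TPM. The authors' deposited log2 table was used as a check. Per the submitters' processing notes, tools were cutadapt, Bowtie, RSEM 1.17 and edgeR on build NCBIM37. The sources used here give no settings.

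Rounded expected counts went into edgeR 4.0.16 under R 4.3.3 (filterByExpr, minimum count 10, TMM, quasi-likelihood F-test, group as the only term), adjusted over 12047 genes at 0.05. SE was taken as |log2 fold change| / √F. CPM are TMM-scaled. DESeq2 1.42.0, limma-voom (limma 3.58.1), other scalings, no filter, thinning to 4440123 counts, a replicate block and leaving out each library were alternatives. The procedure was tested on simulated data. Symbols matched 88.4% of genes; Tle5 was matched by its older symbol Aes. GENCODE M21, of another build, gave exon overlap and lengths. Mean transcript length is count over TPM, scaled on single-transcript genes over 1000 bases. Counts within 0.005 of an integer were called whole.

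Members and lists were chosen with earlier results of these data known. Named were the members, list genes past the threshold, in each list the gene of highest mean TPM and the 2 of smallest p, the 6 genes most correlated with Dact1, and genes overlapping a member's exons; other genes named were chosen after their values were seen.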

Additional observations from a re-analysis of the deposited data

How the results depend on the processing

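All genes past the threshold numbered 338. They were 612 with no filter on low counts, 601 with DESeq2 and 213 with the replicate block, and 32 to 2555 when a library was left out, the highest without BRL replicate 1. The 5 Wnt list genes became 8 with DESeq2 and 2 with the replicate block, and 0 to 23 when a library was left out, again highest without BRL replicate 1. The cause was not tested. Fits without a library have fewer samples. Upper-quartile scaling, removal of mitochondrially encoded genes, thinning and limma-voom kept both counts within 1.5 times. Over the 13 alternatives the log2 fold change of Dact1 lay between 2.16 and 2.32, and each member's value moved by less than the SD between libraries; those of Dvl3, Ctnnb1 and Lrp6 changed sign, around 0. Same-numbered libraries did not deviate together (correlations of 0.10, −0.02 and −0.02), so the replicate numbers are not taken as pairs. Depth limits Axin2, with 18 to 58 counts, and most ligands.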
